A study of Arabidopsis thaliana with 6 samples.

Results

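The autonomous flowering pathway was followed in RNA-seq of Arabidopsis thaliana seedlings through 8 genes, chosen by their locus identifiers out of 33602 genes in the count table: FCA (AT4G16280), FY (AT5G13480), FPA (AT2G43410), FLK (AT3G04610), FVE (AT2G19520), FLD (AT3G10390), LD (AT4G02560) and REF6 (AT3G48430). The samples were 3 libraries of wild type plants (WT) and 3 libraries of a prmt5 mutant, both of the Col-0 ecotype. All plants were harvested whole after 9 days at 22 °C in continuous white light, following 4 days of cold in the dark, and the labels name no other treatment. The labels do not name the allele of the prmt5 mutant or the number of plants pooled per library. PRMT5 is an arginine methyltransferase that acts on core proteins of the spliceosome, so the comparison asks how the 8 genes were expressed and spliced without its normal function.

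The autonomous pathway promotes flowering by lowering the expression of FLC, a MADS-box repressor of flowering, and it acts independently of day length. Its genes fall into a group of RNA-binding and RNA 3′-end processing proteins (FCA, FY, FPA and FLK) and a group of chromatin and nuclear proteins (FVE, FLD and LD). REF6, a histone demethylase whose mutants flower late, is usually placed with them. FCA and FPA also control their own transcripts, through poly(A) sites that lie early in the gene, inside an intron.

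The splice sites on which the results below turn are shown here, all on the minus strand, in TAIR10 coordinates and with the bases read from the TAIR10.1 reference. In each donor site the last 3 bases of the exon precede the first 6 bases of the intron, and capitals mark the GT at which the intron starts. In the acceptor site capitals mark the AG at which the intron ends. The first 2 lines belong to the FLK intron whose counts rose most clearly, at chr3:1254283-1254768, in the 5′ UTR.
FLK intron 1 donor: cacGTaatt
FLK intron 1 acceptor: aatttatgtcAGc
FLK intron 2 donor: gctGTgagt
FLK intron 3 donor: cagGTtcct
FLK intron 4 donor: cagGTtatc
FLK intron 5 donor: cagGTattc
FLK intron 6 donor: cagGTaccc
FCA intron 3 donor: aagGTatgt
FCA last intron donor: gagGTtcat
FY last intron donor: cagGTccca
FPA intron 1 donor: ccgGTttgt

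Introns 3 to 6 of FLK start after the exon bases cag, whereas introns 1 and 2 start after cac and gct. A donor score was computed as the log2 odds of the 9 bases over 110931 annotated junctions, whose median score was 7.05. FLK intron 1 scored 5.36, which placed it at the 21.9th percentile of those junctions, and FLK intron 2 scored 3.96, at the 8.38th percentile. FCA intron 3 scored 10.4, at the 97.9th percentile. The last introns of FCA and FY scored 5.90 and 4.31. The scores describe the sites and were not tested against the counts.

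FLK also used an exon that the deposited junction table does not mark as annotated, inside intron 2 at chr3:1252841-1253018 on the minus strand. It is 178 bases long, which is not a multiple of 3. The coding sequence before it, 699 bases, is a multiple of 3. Read in that frame, the exon holds a stop codon that starts at its base 37, shown in capitals.
FLK exon inside intron 2: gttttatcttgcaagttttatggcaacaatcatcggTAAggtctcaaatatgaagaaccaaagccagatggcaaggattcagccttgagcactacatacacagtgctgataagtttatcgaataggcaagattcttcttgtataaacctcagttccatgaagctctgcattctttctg

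Libraries held 38564256 to 75461631 gene counts. WT replicate 2 had the fewest counts and the strongest 3′ bias, with a median log2 ratio of last to first exon bin of 0.61 over 12274 genes against 0.0055 to 0.40 in the other libraries. The PRMT5 gene itself stood at 30.0 ± 1.20 CPM over the WT libraries and at 32.2 ± 2.98 CPM over the prmt5 libraries (edgeR adjusted p = 0.30), so its level did not tell the genotypes apart. CPM are counts per 1000000 counts of the library size after TMM scaling, and errors are SD over n = 3. The summed level of 3 shoot markers was 17975 to 19369 CPM in WT and 15156 to 17359 CPM in prmt5. Of the 3, LHCB1.1 was called lower (log2 change -0.87), and RBCS1A and STM did not pass (log2 changes -0.07 and 0.37). RBCS1A alone had a mean of 14884 CPM in WT and 14153 CPM in prmt5. The summed level of 4 root markers was 45.1 to 56.0 CPM in WT and 61.1 to 75.4 CPM in prmt5. Of the 4, PIN2 and EXPA7 were called higher (log2 changes 0.91 and 0.44). COBL9 and TIP2-3 did not pass (log2 changes 0.27 and -0.31). Among all genes tested, 17.9% were called higher and 15.4% lower. The summed level of 4 floral organ genes was 0.60 to 1.02 CPM in WT and 0.41 to 0.59 CPM in prmt5. The part of these markers in the results below was not tested. Each library is a mixture of seedling tissues, in which fewer cells of a type and less RNA per cell cannot be told apart. The labels do not say that replicates came from separate cultures, so p-values measure only the spread between these libraries.

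Two-sided edgeR tests called 2 of the 8 genes higher in prmt5 (FLK and FVE) and 1 lower (FPA), at a p adjusted over all genes of under 0.05. Over all 22509 genes tested, 17.9% were called higher and 15.4% lower, so the members' counts were close to that background. The median log2 change was 0.11 over the 8 genes and 0.0063 over all tested genes.

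FLK encodes a protein with KH domains, an RNA-binding fold, and lies at chr3:1250553-1254873. Its level in the 3 WT libraries was 45.9, 47.5 and 45.5 CPM, and in the 3 prmt5 libraries 99.3, 97.3 and 95.1 CPM. Every prmt5 library lay far above every WT library. The mean rose from 46.3 ± 1.07 to 97.2 ± 2.08 CPM, a 2.10-fold change (log2 change 1.07, SE 0.06, edgeR adjusted p = 5.4e-07). In 11 alternative fits the log2 change ran from 1.05 to 1.09. Relative to this gene count, the 7 tested FLK exon bins had log2 changes of -0.16 to -0.0015, and none passed. The part of intron reads in the rise of the gene count was not tested.

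FVE, also called MSI4, is a WD40-repeat protein of histone-modifying complexes, at chr2:8455936-8459525. Its level was 61.2, 61.3 and 62.9 CPM in WT and 73.9, 68.3 and 71.2 CPM in prmt5. All 3 prmt5 libraries lay above the WT libraries. The log2 change was 0.20 (SE 0.06, edgeR adjusted p = 0.022). The call was lost without WT replicate 1 or 3 or prmt5 replicate 1 or 3, with an adjusted p of 0.060 to 0.097.

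FPA encodes an RNA-binding protein that promotes the use of early poly(A) sites, at chr2:18025247-18031243. Its level was 46.8, 44.1 and 46.8 CPM in WT and 37.1, 43.6 and 38.3 CPM in prmt5. The prmt5 libraries lay below the WT libraries, but prmt5 replicate 2 nearly reached WT replicate 2. The log2 change was -0.21 (SE 0.07, edgeR adjusted p = 0.038). This call too was lost without WT replicate 1 or 3 or prmt5 replicate 1 or 3, where the adjusted p was 0.082 to 0.15. The last 46 bases of FPA overlap the neighbouring gene AT2G43400, and without a stated strand setting reads in the overlap cannot be assigned. None of the 8 tested exon bins of FPA was called relative to the gene.

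The partner of FCA in 3′-end processing, FY, is a subunit of the polyadenylation machinery, at chr5:4326473-4331971. It stood at 19.9, 20.9 and 21.2 CPM in WT and at 23.4, 21.7 and 23.5 CPM in prmt5. The groups did not overlap, but the log2 change of 0.15 (SE 0.06) did not pass (edgeR adjusted p = 0.10). FCA, an RNA-binding protein at chr4:9206597-9214825, measured 33.4, 28.8 and 30.4 CPM in WT and 31.5, 34.4 and 31.6 CPM in prmt5. These groups overlapped, and the log2 change was 0.07 (SE 0.07, edgeR adjusted p = 0.47).

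The other chromatin and nuclear members did not pass either. FLD, a homologue of the human histone demethylase LSD1, lies at chr3:3229293-3232345 and gave 20.7, 17.5 and 21.9 CPM in WT and 20.4, 23.8 and 22.8 CPM in prmt5. Its groups overlapped (log2 change 0.15, SE 0.09, edgeR adjusted p = 0.23). LD, a homeodomain protein at chr4:1123490-1128421, stood at 29.9, 28.9 and 30.8 CPM in WT and at 29.1, 28.9 and 29.7 CPM in prmt5. Its log2 change was -0.03 (SE 0.06, edgeR adjusted p = 0.72). REF6, at chr3:17935609-17940746, measured 34.0, 31.3 and 34.9 CPM in WT and 31.7, 36.3 and 34.3 CPM in prmt5, again with overlapping groups (log2 change 0.03, SE 0.07, edgeR adjusted p = 0.80).

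**Figure D1:**
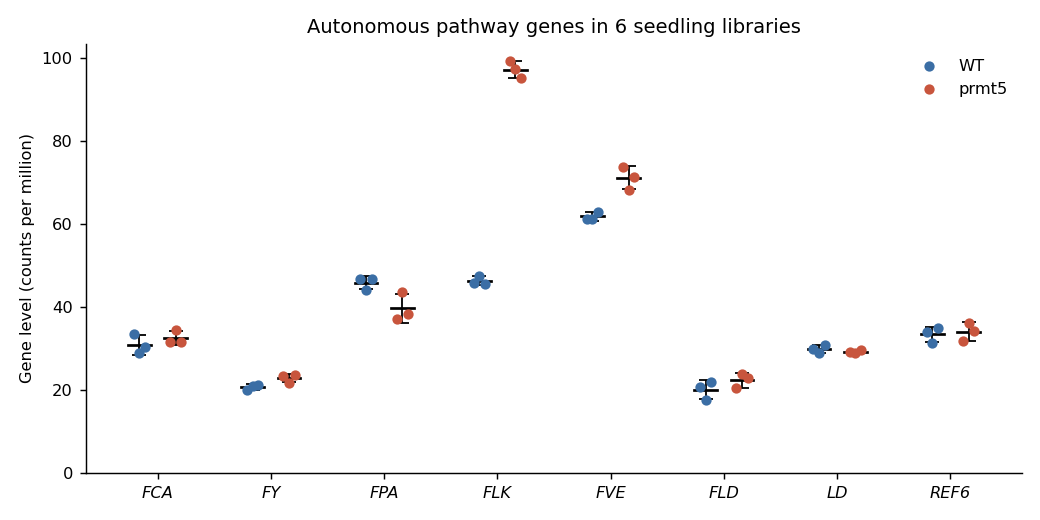
Gene level in CPM (y axis) of the 8 autonomous pathway genes (x axis) in 3 WT and 3 prmt5 libraries; points are libraries, and black bars are means with SD. FLK lies at 45.5 to 47.5 CPM in WT and 95.1 to 99.3 CPM in prmt5, while the groups of the other genes lie close together or overlap.

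Divided by the length of each gene's exons, levels can be set beside each other between genes. In WT the order was FVE with 32.8 CPM per kb, FLK with 22.5, FPA with 12.0, LD with 9.34, FY with 7.98, REF6 with 7.64, FLD with 7.55 and FCA with 5.96 CPM per kb. The library ranges of FY, REF6 and FLD overlapped with their neighbours in that order. In prmt5 FLK came first with 47.3 ± 1.01 CPM per kb, above FVE with 37.8 ± 1.47 CPM per kb, and their library ranges did not overlap. FPA followed with 10.4 CPM per kb. LD, FY, FLD and REF6 then lay between 9.15 and 7.80 CPM per kb, each overlapping the next, and FCA was again last with 6.27 CPM per kb. The exon length used for FCA includes its long intron 3, which the annotation of the files also counts as an exon bin.

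The 3 genes whose levels over the 6 libraries were most like those of FLK were AT1G08910, AT1G44780 and AT3G16320. Likeness was the root mean square difference of log2 CPM after centring each gene on its own mean, and it was 0.026, 0.034 and 0.035 among 22508 genes compared. AT1G08910 went from 21.8, 21.9 and 21.2 CPM in WT to 45.9, 47.1 and 43.9 CPM in prmt5.

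Intron counts were then compared relative to the count of their own gene, which separates a change in an intron from a change in the gene. Of 90 intron rows in the 8 genes, 35 had enough counts to be tested. The test called 4 of them higher in prmt5 (intron 1 of FLK, intron 3 and the last intron of FCA, and the last intron of FY) and 0 lower. None was lower at an unadjusted p under 0.05 either. DESeq2 called 3 higher and 0 lower, against 15.1% and 0.225% of all introns. The called share of 11.4% was below that of all 53291 introns tested, of which 21.6% were higher and 0.518% lower. The median log2 change was 0.23 over the 35 introns and 0.37 over all introns. When this general shift of 0.37 was removed, 2 of the 4 calls remained, intron 1 of FLK and the last intron of FCA, and 12.4% of all introns were called higher and 3.53% lower. The 55 untested rows had a mean of at most 4.17 counts.

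FLK intron 1, of 486 bases, lies in the 5′ UTR, 10 bases before the start codon. Of 4 RefSeq transcripts of FLK, 2 have this intron. It held 150, 90 and 169 counts in WT and 930, 730 and 1074 counts in prmt5. Per base, this was 20.9%, 20.5% and 21.7% of the gene's counts per base in WT and 74.0%, 76.1% and 69.3% in prmt5. The groups were far apart, with means of 21.0 ± 0.63% and 73.1 ± 3.52%. The log2 change relative to the gene was 1.79 (SE 0.12, edgeR adjusted p = 1.1e-15), and 1.42 with the general intron shift removed.

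Reads that span a splice junction measure the opposite outcome, the removal of the intron. The spliced junction of FLK intron 1 had 161, 55 and 126 counts in WT and 68, 50 and 98 counts in prmt5. Divided by the median of the other 5 annotated FLK junctions in the same library, it stood at 1.13, 0.58 and 0.77 in WT and at 0.27, 0.29 and 0.32 in prmt5. All WT values lay above all prmt5 values (exact permutation test, p = 0.1, the smallest that 3 against 3 libraries can give). In a test of junction counts relative to the gene, added after the values had been seen, this was the only one of 92 tested member junctions called lower (log2 change -1.61, SE 0.18, edgeR adjusted p = 2.3e-06). In that test 0.99% of all 102540 junctions were lower and 0.175% higher, and 0 member junctions were called higher, with 3 higher and 2 lower at an unadjusted p under 0.05. The second of these lower ones was the junction of the last FCA intron (log2 change -0.62, edgeR adjusted p = 0.29).

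Taken as a level, without the gene as reference, the spliced junction of FLK intron 1 had 2.43, 1.40 and 1.74 CPM in WT and 1.27, 1.20 and 1.42 CPM in prmt5. The log2 change was -0.53 (SE 0.19) and did not pass (edgeR adjusted p = 0.087), although it passed without WT replicate 2 (adjusted p = 0.010, against a range of 0.010 to 0.44 with any 1 library left out). The other 5 annotated FLK junctions rose, with log2 changes of 0.85 to 1.00. Both junctions of the exon inside FLK intron 2 rose too, by 1.39 and 2.10 on the log2 scale. Together with the first junction of FVE (log2 change 0.43, edgeR adjusted p = 0.049), 8 member junctions were called higher and 0 lower at junction level, with 2 lower at an unadjusted p under 0.05. Among 103482 junctions 6.49% were higher and 4.0% lower. The FVE call was lost whenever any 1 library was left out, with an adjusted p of 0.051 to 0.16.

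The choice between junctions that share a splice site could be tested for 7 member junctions, and 1 was called. It joins the donor of FLK intron 2 to the exon of 178 bases inside that intron, with 19, 5 and 11 counts in WT and 47, 37 and 54 counts in prmt5. Of the counts that start at this donor, it took 10.1%, 5.56% and 6.63% in WT and 19.3%, 17.7% and 14.5% in prmt5. The groups did not overlap (means 7.43 ± 2.38% and 17.2 ± 2.48%; exact permutation test, p = 0.1). The log2 change was 1.07 (edgeR adjusted p = 0.021) against a background of 3.21% of 8106 junctions higher and 2.69% lower. Without WT replicate 2 or 3 or prmt5 replicate 1 or 2 the call was lost, with an adjusted p of 0.079 to 0.19. The junction that leaves this exon, whose counts were 9, 10 and 18 in WT against 27, 27 and 36 in prmt5, was not called in the same test (log2 change 0.35, edgeR adjusted p = 0.98). Of the counts that end at the acceptor of intron 2, it took 5.06%, 10.5% and 10.4% in WT and 12.1%, 13.6% and 10.1% in prmt5. On this side the groups overlapped (exact permutation test, p = 0.3).

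**Figure D2:**
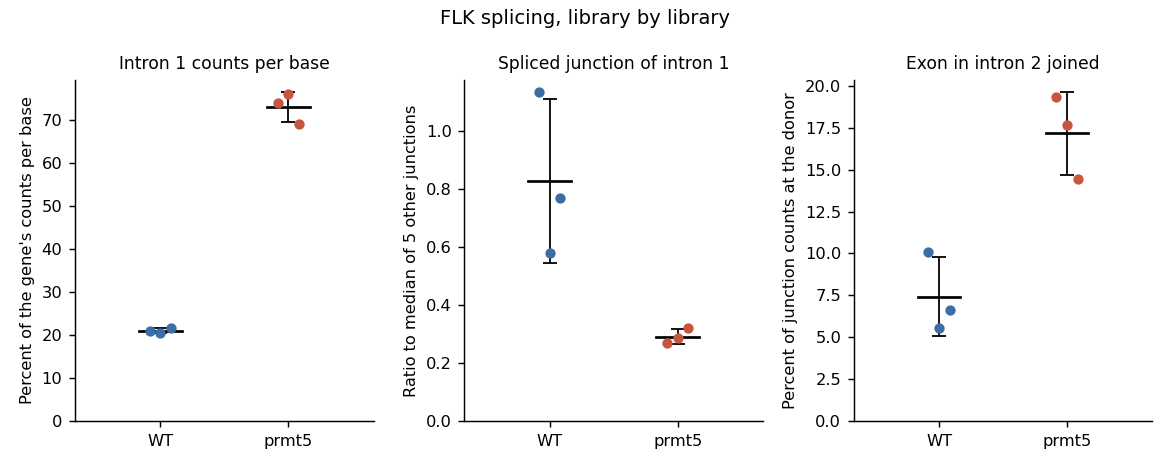
FLK splicing in 3 WT and 3 prmt5 libraries (points; black bars are means with SD). From left to right the y axes show intron 1 counts per base as a percent of the gene's counts per base, the spliced junction of intron 1 relative to the median of 5 other junctions, and the percent of junction counts at the donor of intron 2 that join the unannotated exon. The intron 1 values are 20.5% to 21.7% in WT and 69.3% to 76.1% in prmt5.

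FCA intron 3, of 2075 bases at chr4:9211512-9213586, is counted without an upstream 5′ UTR intron that only 1 of 4 RefSeq transcripts has, and in that transcript it is intron 4. It holds the early poly(A) site of the gene. It had 263, 129 and 254 counts in WT and 298, 230 and 343 counts in prmt5. This was 29.6%, 28.5% and 28.8% of the gene's counts per base in WT and 44.0%, 40.1% and 39.3% in prmt5, with no overlap between the groups. The log2 change relative to the gene was 0.50 (SE 0.13, edgeR adjusted p = 0.0025). With the general intron shift removed it was 0.13 (edgeR adjusted p = 0.56, the highest over 13 alternative fits). Counts in this intron do not tell transcripts that end inside it from transcripts that retain it, and the deposited gene count of FCA includes them. Its spliced junction stood at 0.58 ± 0.20 of the median of 20 other FCA junctions in WT and at 0.70 ± 0.24 in prmt5 (exact permutation test, p = 0.5).

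The last intron of FCA, 117 bases at chr4:9207046-9207162 in the 3′ UTR, is present in 1 of 4 RefSeq transcripts. It held 3, 2 and 8 counts in WT and 11, 13 and 30 counts in prmt5, so that the groups did not overlap but rested on few reads. The log2 change was 2.07 (SE 0.48, edgeR adjusted p = 9.3e-04). In FY the last intron, 249 bases at chr5:4326698-4326946 in the coding region, held 6, 2 and 1 counts in WT and 15, 16 and 4 counts in prmt5. Here the WT and prmt5 counts overlapped, and prmt5 replicate 3 was low. The log2 change of 1.95 (SE 0.64, edgeR adjusted p = 0.021) lost its call with the general shift removed (adjusted p = 0.091), with DESeq2 (0.074) and without WT replicate 3 or prmt5 replicate 1 or 2. Over all 12 alternative fits its adjusted p was 0.0019 to 0.20.

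FPA intron 1, of 1371 bases at chr2:18029349-18030719, holds the early poly(A) site through which FPA limits its own full-length transcript. Its counts were 55, 46 and 69 in WT and 43, 33 and 55 in prmt5. As a share of the gene count these were 1.77%, 2.66% and 2.03% in WT and 2.16%, 1.82% and 2.08% in prmt5. The groups overlapped, and the log2 change was -0.05 (SE 0.22, edgeR adjusted p = 0.92).

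The remaining 30 tested introns had log2 changes of -0.35 to 0.74 and did not pass. An LD intron of 235 bases with the donor cgtGTatcc, at the 1.49th percentile of scores, had a log2 change of 0.08 (edgeR adjusted p = 0.95). FLK intron 2 had a log2 change of 0.23 (edgeR adjusted p = 0.35), and introns 3 to 6 of FLK that could be tested had 0.10 to 0.25. The 5′ UTR intron of FCA that 1 of 4 RefSeq transcripts has overlaps an exon bin. Its counts therefore do not tell retention from exon reads. They made up 13.9%, 9.74% and 14.9% of the gene count in WT and 14.1%, 15.1% and 15.7% in prmt5. These ranges overlapped (log2 change 0.20, SE 0.14, edgeR adjusted p = 0.37). The spliced junction of this intron had 8, 8 and 3 counts in WT and 6, 1 and 4 counts in prmt5.

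The first intron of FY, also in the 5′ UTR, held 5.90%, 5.13% and 4.81% of the gene count in WT and 5.83%, 7.83% and 7.20% in prmt5. The ranges overlapped, and the log2 change of 0.39 (SE 0.19) had an unadjusted p of 0.044 and an adjusted p of 0.15 in edgeR. In FLD the last intron went from 2.19%, 1.75% and 1.70% in WT to 2.66%, 2.91% and 2.41% in prmt5. The groups did not overlap, but the log2 change of 0.48 (SE 0.28) did not pass (edgeR adjusted p = 0.25). The largest log2 changes among the introns that did not pass were 0.68 in LD, on 4 to 17 counts per library, and 0.74 in REF6, on 1 to 11 counts per library.

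The junction table held 144 junctions of the 8 genes, of which 90 were annotated and 54 were not. Only 4 of the unannotated ones reached a mean of 5 counts. These were the pair around the exon inside FLK intron 2, 1 in LD and 1 in FY. That of LD had 9, 3 and 6 counts in WT against 5, 9 and 14 in prmt5, and that of FY had 7, 2 and 10 against 5, 4 and 9. Their ranges overlapped, and neither was called in the choice test (edgeR adjusted p = 0.90 and 1.00).

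**Figure D3:**
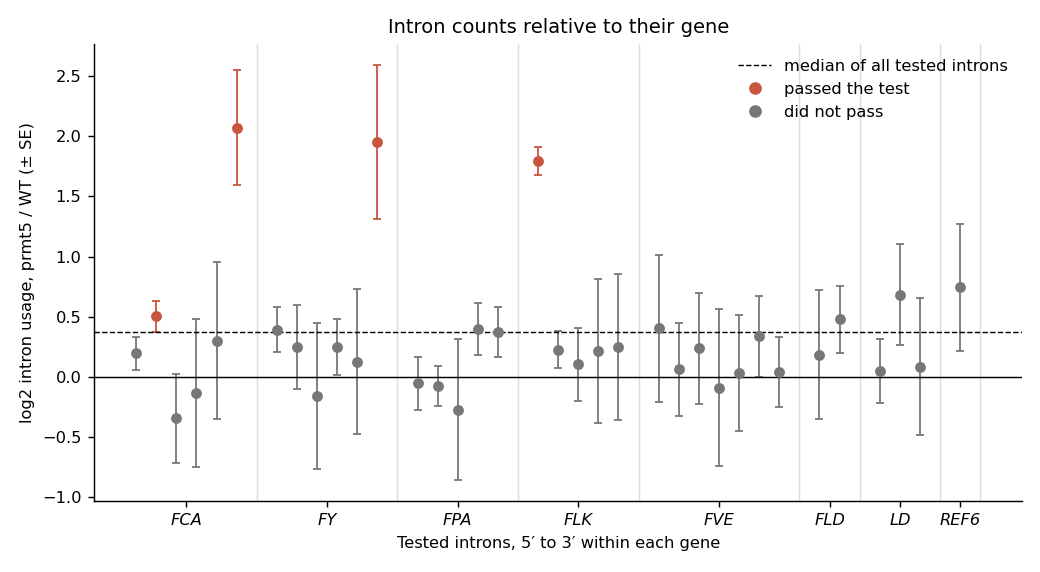
Log2 change of intron usage, prmt5 over WT, relative to the gene count (y axis, with SE) for the 35 tested introns of the 8 genes, ordered 5′ to 3′ within each gene (x axis). Orange points passed the test, and the dashed line is the median of all tested introns, 0.37. FLK intron 1 stands at 1.79 with a short error bar, and the other 2 introns near 2 have wide ones.

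Summed over all introns of a gene, including those with few counts, the intronic count of FLK was 8.97%, 10.2% and 9.21% of the gene count in WT and 22.2%, 23.3% and 21.7% in prmt5. That of FCA was 29.0%, 25.4% and 29.6% in WT and 35.0%, 35.7% and 35.6% in prmt5. The FCA sum includes intron 3. Leaving out the 5′ UTR intron of FCA that overlaps an exon bin gave a difference of 5.37 percentage points instead of 7.47. The groups stayed separate, but this smaller sum still includes intron 3, whose counts do not tell early ends from retention. FLK, FCA, FY and FLD had prmt5 values above all WT values (exact permutation tests, p = 0.1 each). FY went from 11.6 ± 0.67% to 15.9 ± 2.81%, and FLD from 2.66 ± 0.23% to 3.96 ± 1.02%. These 4 of 8 genes compare with 46.9% of 16954 genes with such separate groups higher in prmt5, and 1.09% lower, so the members were close to the background. Without prmt5 replicate 2 the count was 7 of 8, all but FPA, against 52.7% of all genes. With all libraries, in FPA, FVE, LD and REF6 the groups overlapped, with exact permutation p-values of 0.4 to 0.5.

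Exons were compared in the same way. Of 107 exon bins of the 8 genes, 104 were tested relative to the gene count, and 0 passed, with 3 at an unadjusted p under 0.05. The diffSpliceDGE test of edgeR also called 0, against 0.146% of all exon bins higher and 0.0595% lower. The bins at transcript starts and ends, of which 21 were tested, had log2 changes of -0.37 to 0.37. In the test relative to the gene count the background was low as well, with 0.0749% of 129447 exon bins higher and 0.0456% lower.

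A transcript that ends in an early intron adds reads before the intron and none after it. The log2 ratio of exon counts per base before FCA intron 3 to those after it was 0.70, 0.24 and 0.62 in WT and 0.88, 0.81 and 1.00 in prmt5. The prmt5 libraries all lay above the WT libraries, with a difference of 0.38 (exact permutation test, p = 0.1). WT replicate 2, the library with the strongest 3′ bias, was the lowest, and without it the difference was 0.24. The part of 3′ bias in this difference was not tested. For FPA intron 1 the same ratio was 0.59, 0.30 and 0.43 in WT and 0.25, 0.27 and 0.61 in prmt5, with overlapping groups (exact permutation test, p = 0.6).

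**Figure D4:**
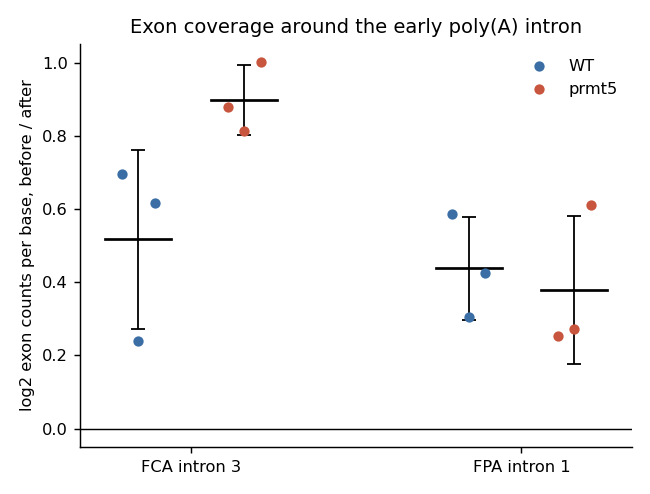
Log2 ratio of exon counts per base before to after the intron with the early poly(A) site (y axis) for FCA intron 3 and FPA intron 1, in 3 WT and 3 prmt5 libraries (points; black bars are means with SD). The FCA groups do not overlap, with WT at 0.24 to 0.70 and prmt5 at 0.81 to 1.00, and the FPA groups overlap.

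Genes that work beside the pathway were followed as 4 further lists, chosen with earlier results of these data known. The background for each list is the share of all genes tested, 17.9% called higher and 15.4% lower. In a list of 15 RNA 3′-end processing factors, 6 were called higher, 2 lower and 7 did not pass, with a median log2 change of 0.11. CPSF73-II, a paralogue of the nuclease that cuts pre-mRNA, rose from 1.83 to 5.48 CPM (log2 change 1.58). CPSF160, the large subunit of the cleavage and polyadenylation specificity factor, rose from 45.2 to 81.1 CPM (log2 change 0.84), and FIPS5, a homologue of yeast Fip1, from 64.4 to 89.9 CPM (log2 change 0.48). The lower genes were CSTF50, a subunit of the cleavage stimulation factor, with a log2 change of -0.38 (edgeR adjusted p = 0.015), and CPSF30, with -0.19 (edgeR adjusted p = 0.044). The CPSF30 call was lost in 9 of 11 alternative fits, and that of CSTF50 without prmt5 replicate 2 or 3.

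Of 13 chromatin genes related to FVE, FLD and REF6, 4 were called higher, 1 lower and 8 did not pass, with a median log2 change of 0.11. MSI1, MSI2 and MSI3, relatives of FVE, rose by log2 changes of 0.26, 0.34 and 0.36. MSI5, another relative in the list, did not pass (log2 change 0.08, edgeR adjusted p = 0.51). APRF1, a WD40-repeat protein, fell (log2 change -0.49, edgeR adjusted p = 0.0033). Of 13 RNA regulators of flowering, 7 were called higher, 0 lower and 6 did not pass, with a median log2 change of 0.29. For both lists the background was 17.9% of all genes higher and 15.4% lower. The exosome-associated proteins RRP6L1 and RRP6L2 rose by 0.99 and 0.98 on the log2 scale, and HUA2, an RNA-processing factor that promotes FLC expression, by 0.83.

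Among 10 floral genes downstream of or beside the pathway, 3 were called higher, 2 lower and 5 did not pass. Their median log2 change was -0.04, and the background was again 17.9% of all genes higher and 15.4% lower. FLC, the main target of the pathway, stood at 0.77, 0.46 and 0.69 CPM in WT and at 1.81, 1.34 and 1.97 CPM in prmt5. All prmt5 libraries lay above the WT libraries (log2 change 1.40, SE 0.26, edgeR adjusted p = 0.0022). MAF5 and FLM, relatives of FLC, rose by 1.68 and 0.45 on the log2 scale. FT, the florigen, and SOC1, a MADS-box promoter of flowering, fell, with log2 changes of -1.26 and -0.90. The other MAF genes, SVP and FRI had log2 changes of -0.13 to 0.11.

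**Figure D5:**
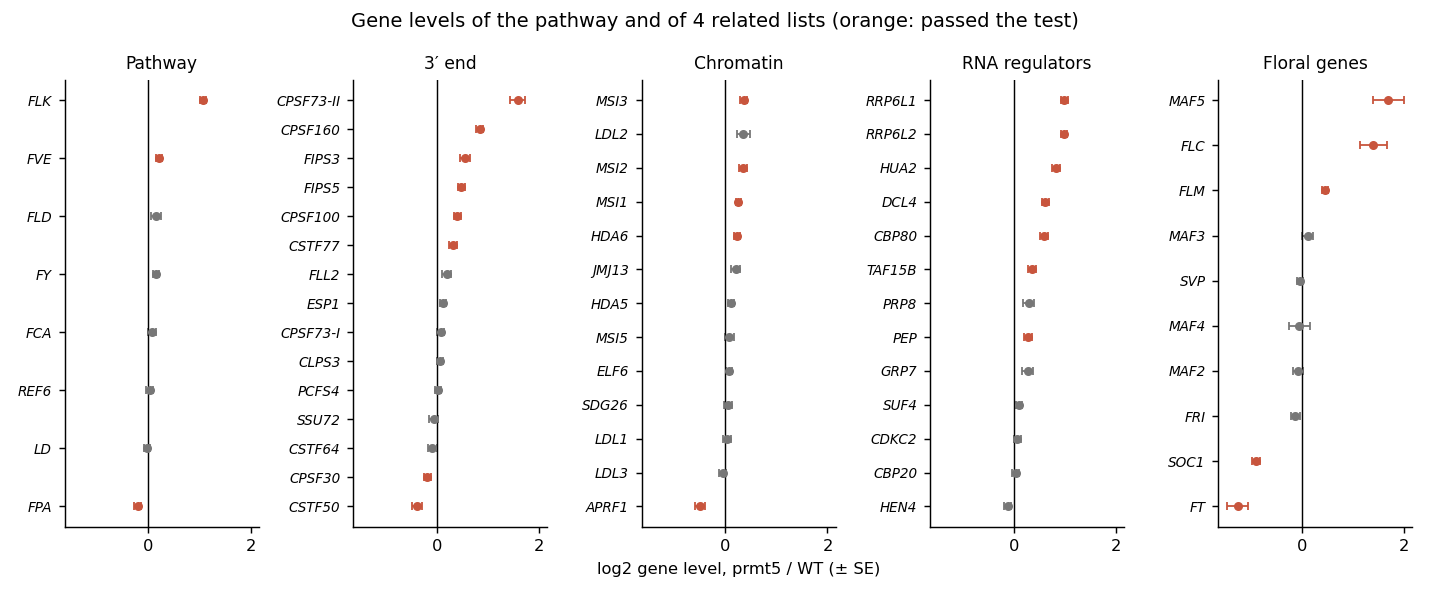
Log2 change of gene level, prmt5 over WT (x axis, with SE), for the 8 pathway genes and 4 lists of related genes (one panel each, genes on the y axis). Orange points passed the test. FLK at 1.07 stands apart from the other 7 pathway genes, which lie between -0.21 and 0.20.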

How the data were processed

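Polyadenylated RNA from 3 libraries a genotype was sequenced. Per the submitters' processing notes, STAR and TAIR10 were used. The counting program, read length and strand setting were not given in the sources used here. The authors deposited raw, unnormalized whole-number counts of genes, exon bins, introns and junctions. Column names were matched to the sample titles. At annotated junctions, 98.5% of 110931 had GT and AG in the TAIR10.1 reference, against 0.0% after a shift of 1 base; intron numbers, UTR and coding terms come from its RefSeq annotation. No 50-base stretch of a member occurred elsewhere (0.0%). Replicates differed by more than sampling noise (chi-square per degree of freedom 13.0 to 32.7).

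The gene table was fitted in R 4.3.3 with edgeR 4.0.16 (TMM, default filter, robust quasi-likelihood F test, genotype as the only term), over all genes, with Benjamini-Hochberg adjustment and a threshold of 0.05. Introns averaging 5 or more counts, in genes averaging 50 or more, and exon bins averaging 5 or more were tested likewise with the log gene count plus 0.5 as offset. Junctions averaging 5 or more counts were tested with diffSpliceDGE within clusters sharing a splice site. SE is the absolute log2 change over the square root of F. Single values per library got two-sided exact permutation tests. DESeq2 1.42.0, other scaling factors and filters, a replicate block and leaving out each library were alternatives. The gene, intron, exon bin and junction choice tests were tested on simulated data. The other junction tests and the permutation tests were not. Named were all members and their called features, FCA intron 3, FPA intron 1, FLC, and of each other list up to 3 genes with the smallest adjusted p in each direction. Introns and junctions that did not pass, other than intron 3 of FCA and intron 1 of FPA, were named after their values were seen. The same holds for MSI5 and for the shoot and root markers. Members and lists were chosen with earlier results of these data known. Plants moved to a lower temperature were not analysed here. Reads carry no molecular identifiers, so errors include counting error and the spread between libraries only.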

Additional observations from a re-analysis of the deposited data

How the results depend on the processing

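Of 585 alternative values for 61 results, 525 stayed within the set limits: the same direction and side of the threshold for tests, within 1.5 times for counts of calls, and within 1 SD for differences without a test. The replicate block left 1 member higher (FLK) and 0 lower, against 14.0% and 11.5% of all genes. FVE and FPA then had edgeR adjusted p-values of 0.081 and 0.088. Replicate numbers did not pair the libraries, since same-numbered libraries had correlations of deviations of -0.11, -0.14 and -0.063, so the block is no test of a weaker effect. Leaving out 1 library gave 1 to 2 members higher and 0 to 1 lower. Of the 22556 to 22863 genes then tested, 2883 to 3918 (12.8% to 17.2%) were higher and 2507 to 3783 (at most 16.6%) lower. Without the gene as reference 7 member introns were higher, against 24.9% of all introns, and with the median change removed 2 were, against 12.4%. The number of member junctions called in the choice test was 0 to 1 with 1 library left out. Over all junctions in that test, 2.1% to 3.15% were then higher and 1.63% to 2.37% lower. Leaving out 1 library, 4 members had separate intronic counts higher in prmt5, except 7 without prmt5 replicate 2; over all genes the share was 51.1% to 57.4%. With 1 library left out, the log2 change of REF6 ran from -0.028 to 0.076 and that of FPA intron 1 from -0.18 to 0.088, each changing sign without WT replicate 2 or prmt5 replicate 2; neither had passed. The difference in the intronic count of FLK was 12.9 percentage points against the gene count and 10.7 against the summed exon bins. The causes were not tested. Before FPA intron 1 lies a single exon bin, so the alternative without the first and last bin gave no value. With 35 of 90 introns deep enough to test, smaller changes in the others were not detectable.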
